A study of Caenorhabditis elegans with 2 samples.

Results

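The genes that encode neuropeptides and insulin-like peptides were examined for binding by LIN-39 in larvae of the nematode *Caenorhabditis elegans*. They were all protein-coding genes with names that begin with *flp*-, *nlp*- or *ins*-, which gave 140 of 19973 protein-coding genes on the nuclear chromosomes. Of these, 31 were *flp* genes, 71 were *nlp* genes and 38 were *ins* genes. A gene was called bound where the summit of a LIN-39 peak lay in its body or in the 2000 bp upstream. Names chose the members, and the rule used no measured value. The families themselves were chosen with earlier results of these data known.

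Chromatin immunoprecipitation followed by sequencing was done on whole L3 larvae of mixed sex from strain OP18, whose genotype is *unc-119(ed3)* III with the transgene *wgIs18*. The larvae carried *lin-39* tagged with eGFP from this insertion, and the tag was the target. Both samples were biological replicates of this single group, so there was no contrast between conditions, and whether they share a culture is not stated. Peaks came from whole animals, so a site used in few cells and a site used weakly in many cannot be told apart.

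LIN-39 is the Hox protein of the midbody, where it acts in the vulval precursor cells, in migrating neuroblasts and in motor neurons of the ventral nerve cord. With a Pbx-type partner, CEH-20, it binds composite DNA sites. The *flp* genes encode precursors of FMRFamide-like peptides, the *nlp* genes other neuropeptide-like precursors and some antimicrobial peptides, and the *ins* genes insulin-like peptides that act through the receptor DAF-2. Precursors are cut and amidated in dense-core vesicles, and most of the released neuropeptides act on G protein-coupled receptors.

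The list that the authors thresholded by the irreproducible discovery rate, called optimal here, held 4250 peaks, which were those of highest signal with the replicates pooled. Their signal, the value given for each peak in the authors' list, ran from 33.1 to 542 with a median of 52.6. The relaxed lists held 30000 peaks for the pooled replicates, 30000 for replicate 1 and 27572 for replicate 2. Read counts are not in these files, so the depth is unknown. Intervals on shares below are 95% Wilson intervals and cover the counting of genes only.

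LIN-39 summits were found at few peptide genes. Of the 140 members, 11 were bound, or 7.86% (interval 4.44 to 13.5%), beside 19.2% of all protein-coding genes. Bound were 3 of 31 *flp* genes (9.68%, interval 3.35 to 24.9%), 7 of 71 *nlp* genes (9.86%, 4.86 to 19.0%) and 1 of 38 *ins* genes (2.63%, 0.466 to 13.5%). The intervals of the 3 families overlap, and the differences between families were not tested. Each bound member had a single optimal summit, and no summit counted for 2 members. The strongest summit of each bound member had a median signal of 44.4, against 58.8 over all 3842 bound genes. Other bound genes could hold several optimal summits, and the median over all optimal peaks was 52.6.

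**Figure D1:**
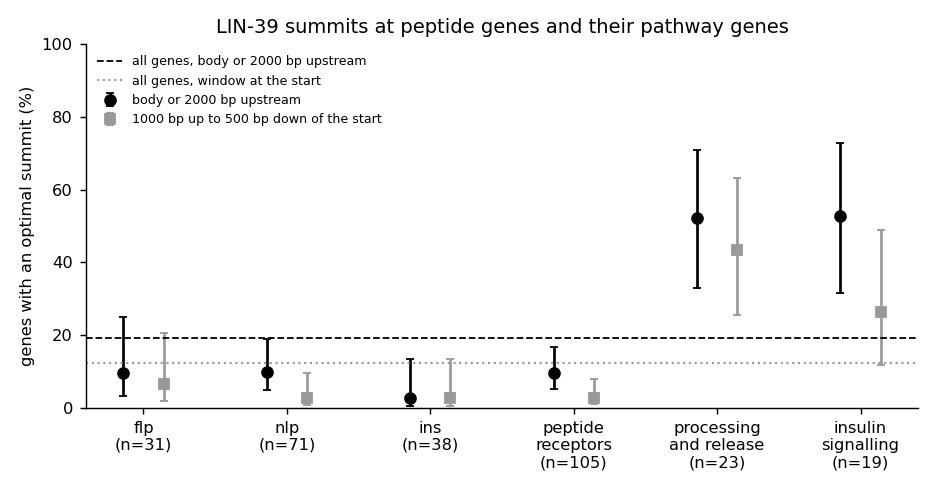
Share of genes with an optimal LIN-39 summit in each family and in 3 lists of pathway genes, in percent, with 95% Wilson intervals as bars; circles use the gene body and 2000 bp upstream, squares a window of equal length at the gene start, and the lines give all protein-coding genes under each rule. The *flp*, *nlp* and *ins* shares (9.68%, 9.86% and 2.63%) lie under the dashed line at 19.2%, while the lists of processing genes (52.2%) and insulin signalling genes (52.6%) lie above it. The lists were chosen with earlier results of these data known.

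Peptide genes are short, and so were their windows. The median window of members was 2888 bp, against 4027 bp for all genes. By family the median was 3186 bp for *flp*, 2860 bp for *nlp* and 2649 bp for *ins* genes. Of the 140, 102 fell in the shortest of 3 bands of windows (2030 to 3458 bp), among them 33 of the 38 *ins* genes. In that band, 7 of 102 members were bound (6.86%), beside 13.1% of all genes of that length. In the middle band (3459 to 4917 bp), 1 of 25 members was bound, beside 14.8%. In the longest band, 3 of 13 were bound (23.1%), beside 29.8%. With a window of the same length for every gene, from 1000 bp before its start to 500 bp after it, 5 of 140 members were bound (3.57%, interval 1.53 to 8.09%), beside 12.4% of all genes. The pooled share of members lay under that of all genes in each of the 3 bands and with the fixed window, but not in every family or chromosome: in the longest band 2 of 6 *nlp* genes were bound (33.3%, beside 29.8%).

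Bound members lay on 4 of the 6 chromosomes. On the X chromosome 4 of 34 members were bound (11.8%), beside 23.0% of all X-linked genes, and on the autosomes 7 of 106 (6.60%), beside 18.6%. Within the shortest band of windows the order on X was the opposite: 4 of 29 X-linked members were bound (13.8%), beside 80 of 767 X-linked genes (10.4%). In that band on the autosomes 3 of 73 members were bound (4.11%), beside 13.5%. None of 28 members on chromosome II and none of 19 on chromosome IV was bound, beside shares of 18.0% and 17.1% over all genes there. On chromosome I 3 of 19 members were bound (15.8%), beside 26.1%, on chromosome III 3 of 17 (17.6%), beside 27.3%, and on chromosome V 1 of 23 (4.35%), beside 11.2%.

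The only *ins* gene with an optimal summit had the strongest peak of any member. At *ins-39* the summit lay 632 bp upstream of the gene start on the X chromosome (peak 1344895 to 1345210, minus-strand gene at 1343758 to 1344421). Its signal was 149, rank 172 of the optimal list. Replicate 1 gave this summit a signal of 58.7 and rank 386, and replicate 2 gave it 91.3 and rank 129. The signal scales differ between lists, so only the ranks are set side by side: the *ins-39* peak was high in both replicates. No other protein-coding gene held this summit in its window.

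Among the *flp* genes, all 3 peaks lay under the optimal list's median signal of 52.6. *flp-23* had a summit 344 bp upstream (chromosome III, 8650265 to 8650580, signal 44.4), ranked 1675 in replicate 1 and 9173 in replicate 2. This summit lay inside an annotated tRNA gene, WBGene00023002. *flp-12* had a summit 38 bp upstream of its start (X, 4592230 to 4592545, signal 39.7), ranked 5051 and 3292. *flp-14* had a summit in an intron, 2792 bp inside the gene (chromosome III, 12913144 to 12913459, signal 33.2, rank 4234 of 4250). The *flp-14* peak ranked 22811 in replicate 1 and 2603 in replicate 2, so it lay near the end of the optimal list and far down that of replicate 1. A different summit in the *flp-14* window ranked 2846 in replicate 1.

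The 7 bound *nlp* genes were *nlp-12*, *nlp-45*, *nlp-76*, *nlp-15*, *nlp-21*, *nlp-9* and *nlp-4*. *nlp-12*, which encodes a cholecystokinin-like peptide of the DVA neuron that tunes locomotion, had the strongest (signal 137, rank 220; chromosome I, 1841919 to 1842234), 1307 bp upstream. That summit ranked 333 in replicate 1 and 271 in replicate 2. It was closer to another gene, lying 368 bp from the start of *emr-1*, which encodes the nuclear envelope protein emerin. It was the only one of the 11 strongest member summits with another protein-coding gene's start nearer than the member's own. Over all bound genes, 66.0% had a strongest summit nearest to their own start.

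Of the other *nlp* peaks, 2 ranked within the strongest 4250 in both replicates. *nlp-45* had a summit 666 bp upstream (X, 2338818 to 2339133, signal 59.7), ranked 1758 and 2436. *nlp-76* had a summit 1303 bp upstream (X, 12665048 to 12665363, signal 56.4), ranked 1665 and 2296, which lay 22 bp from a tRNA gene, WBGene00009555, and 18 bp from the noncoding gene *C02B4.8*. The window of *nhr-17* also held that summit. Within 200 bp of a tRNA gene lay 2 of the 11 member summits (18.2%) and 168 of the 4250 optimal summits (3.95%); the part of tRNA genes in these calls was not tested.

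The remaining 4 *nlp* peaks had signals under 52.6 and better ranks in replicate 2 than in replicate 1. *nlp-15* had an intronic summit 1621 bp inside the gene (signal 44.6), ranked 6261 in replicate 1 and 2714 in replicate 2. *nlp-21* had a summit 1762 bp upstream (signal 41.4), the farthest upstream of any bound member, ranked 19344 and 1711. *nlp-9* had a summit 1274 bp upstream (signal 40.2), ranked 10898 in replicate 1. Its closest summit in replicate 2 lay 153 bp away and ranked 1497, just past the 150 bp allowed for a match. *nlp-4* had a summit 63 bp upstream (signal 36.2), ranked 7968 and 2773, and shared it with the windows of *F59C6.18*, *exos-3* and *ndub-10*.

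**Figure D2:**
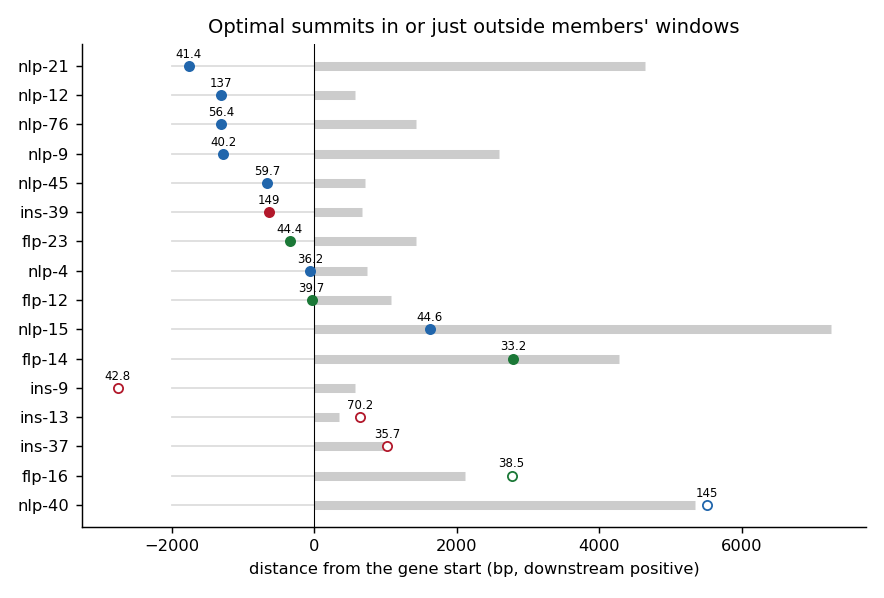
Optimal summits in the windows of the 11 bound members (filled) and up to 1000 bp outside the windows of 5 others (open), by distance from the gene start in bp; thick bars are gene bodies, thin lines the 2000 bp upstream, colours the families (green *flp*, blue *nlp*, red *ins*) and numbers the authors' signal. Of the filled points, 9 lie upstream (81.8%) and 2 inside the gene, in introns (18.2%). Over the strongest summits of all bound genes these shares were 76.7% and 17.5%. Of the 5 open points, 4 lie beyond the end of the gene.

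Sequences of 101 bp centred on the summit are shown for the bound members with a match to the letters of a composite Hox and Pbx site. The sequence of *ins-39*, the strongest peak, is also shown and had no such match. The letters searched were TGATNNAT on both strands, within 50 bp of the summit, and matches are in capitals. They lie on ce11 at chrIII:12913252-12913352 (minus strand) for *flp-14*, at chrX:2338926-2339026 (plus strand) for *nlp-45* and at chrX:1345003-1345103 (minus strand) for *ins-39*, read from the reference genome (RefSeq, WBcel235).
*flp-14*: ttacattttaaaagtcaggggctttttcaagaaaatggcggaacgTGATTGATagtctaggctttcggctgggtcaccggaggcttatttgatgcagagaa
*nlp-45*: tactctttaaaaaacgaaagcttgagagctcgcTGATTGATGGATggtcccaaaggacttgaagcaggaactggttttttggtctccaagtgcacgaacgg
*ins-39*: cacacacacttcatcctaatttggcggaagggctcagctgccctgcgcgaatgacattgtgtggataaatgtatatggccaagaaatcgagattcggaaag

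At *flp-14* the match TGATTGAT was centred within 2 bp of the summit. At *nlp-45* 2 matches overlapped, of which the nearer, TGATGGAT, was centred 9.50 bp from the summit. These letters were near 2 of the 11 member summits (18.2%, interval 5.14 to 47.7%) and 379 of all 4250 optimal summits (8.92%, 8.10 to 9.81%). In windows of equal length 500 bp to either side they were in 1 of 22 (4.55%) and in 622 of 8500 (7.32%). The interval for the members covers the share over all summits. Median GC content was 47.5% at the member summits and 48.5% at all optimal summits.

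The replicates gave similar numbers of bound members but named partly different genes. Among each replicate's own 4250 strongest peaks, replicate 1 placed a summit at 8 members (5.71%), beside 18.3% of all genes, and replicate 2 at 10 (7.14%), beside 19.0%. They shared 5 members, 62.5% of replicate 1's 8 and 5 of replicate 2's 10, while over all genes 2625 were shared, 71.9% and 69.2%. The 5 were *flp-14*, *nlp-12*, *nlp-45*, *nlp-76* and *ins-39*. At *flp-14* the call in replicate 1 came from a summit other than that of the optimal list. By family, replicate 1 gave 3 *flp*, 4 *nlp* and 1 *ins* gene, and replicate 2 gave 2, 7 and 1. Replicate 1 added *flp-18*, a gene for ligands of the receptors NPR-4 and NPR-5, and *nlp-79*, neither of which was in the optimal list. All 10 members of replicate 2 were among the 11 of the optimal list, and *flp-23* was the one left out.

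Peak by peak, 4 of the 11 strongest member summits had a summit among the strongest 4250 of both replicates within 150 bp, namely those of *ins-39*, *nlp-12*, *nlp-45* and *nlp-76*. Another 5 had one in replicate 2 alone and 1, at *flp-23*, in replicate 1 alone. Counting genes bound by such shared optimal peaks left 4 of 140 members (2.86%, interval 1.12 to 7.12%), beside 12.0% of all genes, and no *flp* gene. Of all optimal peaks, 54.2% were matched in both replicates, 71.5% in replicate 1 and 79.3% in replicate 2. The replicates share control alignments, so their lists are not fully independent.

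**Figure D3:**
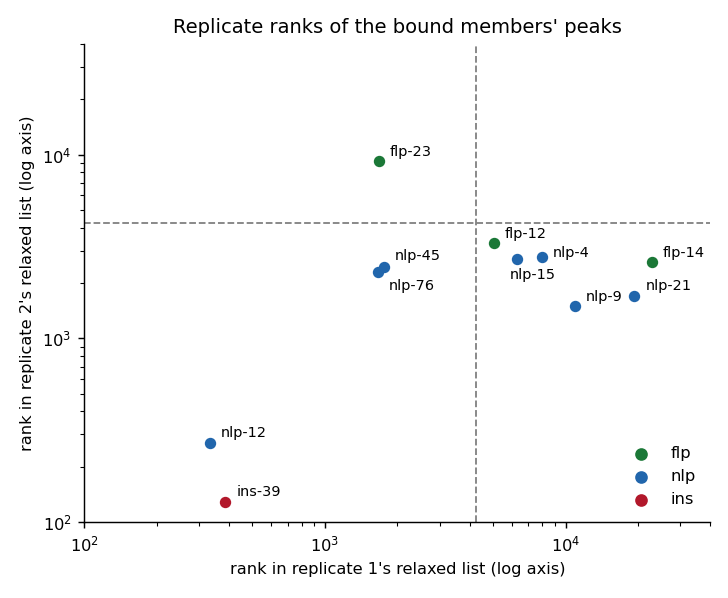
Rank of the replicate summit closest to each bound member's optimal summit, in replicate 1 (x) and replicate 2 (y), both on log axes with rank 1 the strongest; colours mark the families and dashed lines the length of the optimal list, 4250. The points for *ins-39*, *nlp-12*, *nlp-45* and *nlp-76* lie within 4250 in both replicates, *flp-23* in replicate 1 alone and 6 points in replicate 2 alone, among them *nlp-9*, whose replicate 2 summit lay 153 bp away.

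Below the optimal threshold, the pooled relaxed list held a summit at 62 of 140 members (44.3%, interval 36.3 to 52.6%), beside 61.5% of all genes. By family these were 18 of 31 *flp* (58.1%), 35 of 71 *nlp* (49.3%) and 9 of 38 *ins* genes (23.7%, interval 13.0 to 39.2%). The strongest pooled summit per member had a median signal of 10.8, against 17.7 over the 12288 genes with one. Of the 62 members 36 had a single pooled summit, against 4538 of the 12288 genes, so the medians rest on unlike numbers of summits per gene. The replicates' own relaxed lists gave 74 members in replicate 1 (52.9%), beside 66.6% of all genes, and 54 in replicate 2 (38.6%), beside 53.5%. The *ins* genes had the lowest share of the 3 families in each relaxed list, with 15 of 38 (39.5%) in replicate 1 and 8 of 38 (21.1%) in replicate 2. The order of the families was not tested. The *ins* genes also had the shortest median window, 2649 bp, and the relaxed lists were not split by window length.

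The strongest peaks that missed the optimal list were at *nlp-14* (pooled signal 30.4, rank 4743), *flp-4* (29.8, rank 4865) and *flp-18* (27.1, rank 5435). The *flp-4* peaks were uneven, with a best rank of 21536 in replicate 1 and 4577 in replicate 2. Next were *ins-27* (22.9), *nlp-36* (22.6), *nlp-79* (20.9) and *flp-15* (19.9). *ins-28* (13.8) and *ins-36* (11.7) followed among the *ins* genes, and neither had a summit in replicate 2. The most pooled summits were at *nlp-15*, which held 8, and *flp-14*, which held 7, of which 1 each was optimal.

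**Figure D4:**
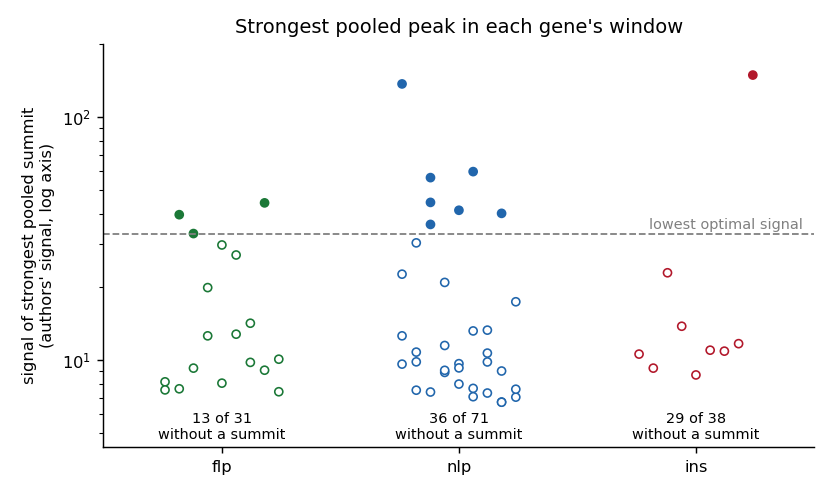
Signal of the strongest pooled summit in each member's window (log axis, the authors' signal), by family; filled points are bound in the optimal list, open points are not, and the dashed line is the lowest optimal signal, 33.1. Horizontal spread only separates points; 13 of 31 *flp*, 36 of 71 *nlp* and 29 of 38 *ins* genes had no pooled summit and are given as text.

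No list held a summit at 50 of the 140 members (35.7%), beside 23.5% of all genes. They were 10 *flp* (32.3%), 18 *nlp* (25.4%) and 22 *ins* genes (57.9%). Among them were *flp-1*, a regulator of locomotion, *flp-10*, whose product like that of *flp-17* acts on the receptor EGL-6 to inhibit egg laying, and *flp-21*, which encodes a ligand of the receptor NPR-1. *ins-1* and *ins-7*, genes for ligands of DAF-2, were also without any summit. *ins-6*, which acts in dauer exit, had only a replicate 2 summit of rank 23217. The lack of a listed peak does not show a lack of binding, and whole larvae mix cells that express a given peptide with many that do not.

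Many *ins* genes lie side by side. Runs of neighbouring protein-coding genes that were all *ins* genes numbered 8 and held 22 of the 38. None of the 22 was bound, beside 19.2% of all genes, and 15 had no summit in any list, beside 23.5% of all genes. The longest run, *ins-2* to *ins-6* on chromosome II (5988524 to 6001009), held 5 genes, and only *ins-6* had a relaxed summit. Of the 16 *ins* genes outside these runs, 7 had no summit in any list. The difference between *ins* genes inside and outside the runs was not tested.

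The *nlp* genes of the epidermal antimicrobial group had no optimal summit. None of the 11 genes *nlp-24* to *nlp-34* was bound (interval 0 to 25.9%), beside 19.2% of all genes, and 4 had a pooled relaxed summit (36.4%, interval 15.2 to 64.6%), beside 61.5%. Both intervals cover the share of all genes. *nlp-29*, which is induced in the epidermis by fungal infection and wounding, had a single pooled summit of signal 6.73, rank 28979. The run *nlp-34*, *nlp-31*, *nlp-30*, *nlp-29*, *nlp-28* and *nlp-27* on chromosome V (3978825 to 3989770) was the longest of any members. Their windows lay 141917 to 151065 bp from the nearest optimal summit. Unbound members as a whole had a median gap of 11876 bp, against 12320 bp for all unbound genes, and both members and all genes had a median of 4 optimal summits within 50 kb of the gene's middle.

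Some optimal peaks, strong and weak, lay just outside the windows of unbound members. The closest was at *ins-37*, 13 bp beyond the window (signal 35.7), past the end of the gene, while the outermost summit inside a window, that of *nlp-21*, lay 1762 bp upstream. *nlp-40*, which encodes an intestinal peptide that drives the defecation motor program, had a peak of signal 145 (rank 183; ranks 377 and 160 in the replicates) 170 bp beyond its end. That peak had the start of *nlp-40* as its nearest start, at 5512 bp. *ins-13* had a peak of signal 70.2 that lay 287 bp beyond its end. The peaks next to *flp-16* (659 bp outside, signal 38.5), *ins-9* (760 bp, 42.8), *flp-1* (1031 bp, 61.0) and *flp-20* (1482 bp, 73.5) were closer to the starts of *romo-1*, *ubc-21*, *rpb-12* and *oga-1*. When each summit counted only for the gene with the nearest start, 15 members were bound (10.7%), beside 16.3% of all genes. This rule added *nlp-40*, *ins-13*, *ins-37*, *flp-2* and *flp-19* and dropped *nlp-12*. The optimal summit nearest to *flp-2* lay 10830 bp outside its window, and that nearest to *flp-19* 2535 bp outside.

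Genes that process and release peptides held optimal summits at a larger share than the peptide genes themselves. This list, like those of receptor and insulin signalling genes below, was chosen with earlier results of these data known. Of 23 genes of peptide processing and dense-core vesicle release, 12 were bound (52.2%, interval 33.0 to 70.8%), beside 19.2% of all genes, and 10 (43.5%) with the window of equal length at the gene start, beside 12.4%. The strongest peaks were at *pghm-1* (signal 96.2), an enzyme of peptide amidation, 42 bp upstream, and at *egl-3* (89.8), the proprotein convertase that cuts precursors, 1049 bp upstream. *ida-1*, which encodes a dense-core vesicle membrane protein, had an intronic peak (85.7), and *sbt-1*, the chaperone of the convertase, had one 158 bp upstream (76.7). *egl-21*, the carboxypeptidase that trims the cut peptides, was also bound (70.7). Each of these 5 ranked within the strongest 4250 peaks of both replicates. All 23 genes held a summit in the pooled relaxed list, beside 61.5% of all genes. Their median window was 7292 bp, in the longest band, where 29.8% of all genes were bound.

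Of 105 peptide receptor genes, 10 were bound (9.52%, interval 5.26 to 16.6%), beside 19.2% of all genes, and 3 (2.86%) with the window at the gene start, beside 12.4%. By the nearest gene start the receptor count was 19 (18.1%, interval 11.9 to 26.5%), beside 16.3% of all genes. Among replicate 1's own strongest peaks, without replicate 2, 6 receptor genes were bound (5.71%), beside 18.3%. The strongest was at *npr-23* (signal 74.0, 131 bp upstream), followed by *npr-13* (41.7), *frpr-19* (39.9) and *frpr-18* (39.1). The median window of the receptor genes was 5828 bp.

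Downstream of the insulin-like ligands, 10 of 19 genes of insulin signalling were bound (52.6%, interval 31.7 to 72.7%), beside 19.2% of all genes and 1 of 38 ligand genes. With the window at the gene start these were 5 of 19 (26.3%, interval 11.8 to 48.8%), beside 12.4%, and 1 of 38. The strongest peaks were at *pptr-1*, a phosphatase subunit gene (signal 113), at the kinase gene *akt-2* (101) and in introns of *daf-16*, the FOXO factor of the pathway (101), and *daf-2*, the receptor (94.3). *daf-16* held 7 optimal summits and *daf-2* held 3. The strongest summit of *daf-16* was nearest to the start of *gpx-8*. The median window of these 19 genes was 7167 bp, and 29.8% of all genes in the longest band of windows were bound. The differences between these lists and the peptide genes were not tested, and the lists were chosen with earlier results known.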

How the data were processed

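The values are peak lists that the authors deposited on ce11: relaxed lists for each replicate and for both pooled, and an optimal list thresholded by IDR (irreproducible discovery rate). The same lists on ce10 were not used. Per the labels, fragments were 150 to 350 bp. The sources used here name no aligner, peak caller or settings. The signal in each deposited list is the authors' peak caller's value, with a scale that differs between lists. Signal served to rank peaks within a list and to give peak values and medians within it. The deposited −log10 q-value was 3.95 for every optimal peak and was not used. The 4250 optimal peaks were the 4250 of highest signal in the pooled list. Depth is unknown.

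Genes came from Ensembl release 115 (WBcel235, the assembly of ce11), whose chromosome names match the lists; all peaks fall within its chromosome lengths. The gene start is the 5′ end of the annotated gene. Replicate summits within 150 bp were matched. Shares have 95% Wilson intervals (Python 3.11.15, SciPy 1.17.1, pandas 2.3.3, NumPy 2.4.6). No test was run: a single group of 2 samples allows none between conditions, and genes are not replicates. Counting code was tested on simulated summits, and motif code against a direct scan of reference sequence from chromosome II. The members and lists were chosen with earlier results of these data known, and 1 list entry, *rab-2*, had no gene of that name. Named are all bound members and up to 4 bound genes per list. Also named are up to 3 members per family with the strongest weaker peak or the closest peak outside. *egl-21*, the members with no summit, *ins-6* and the *ins-39* sequence were added after their values were seen. *nlp-29*, *flp-11* and *flp-13* were also named outside these rules.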

Additional observations from a re-analysis of the deposited data

How the results depend on the processing

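The 11 alternatives were set against 11 bound members, namely 3 *flp*, 7 *nlp* and 1 *ins* gene, and 25 of the 44 counts stayed within 1.5 times. With the window at the gene start, 2 *nlp* genes and 5 members in all (3.57%) were bound, beside 12.4% of all genes. With 5000 bp upstream there were 6 *flp* genes, 3 *ins* genes and 17 members (12.1%), beside 27.0%. By the nearest gene start there were 5 *flp* (16.1%) and 3 *ins* genes (7.89%), beside 16.3%. The 1000 strongest peaks left 0 *flp* genes, 1 *nlp* gene and 2 members (1.43%), beside 5.76%. The pooled relaxed list gave 18 *flp*, 35 *nlp* and 9 *ins* genes, 62 members (44.3%), beside 61.5%. Any base of overlap gave 2 *ins* genes (5.26%), beside 20.2%. Optimal peaks near both replicates' strongest peaks left 0 *flp* genes, 3 *nlp* genes and 4 members (2.86%), beside 12.0%. Leaving out a replicate gave 4 to 7 *nlp* genes. Without replicate 2 there were 4 (5.63%), beside 18.3% of all genes, and the calls at *nlp-4*, *nlp-9*, *nlp-15*, *nlp-21* and *flp-12* ended. Without replicate 1 there were 7 (9.86%), beside 19.0%, and the call at *flp-23* ended. Fewer peaks or a shorter window lower such counts by construction; other causes were not tested. For the lists of pathway genes, 48 of 66 counts stayed within 1.5 times, and the receptor genes moved most often. Their count went from 10 to as low as 0 with the 1000 strongest peaks, beside 5.76% of all genes. It was highest, at 57 (54.3%), with the pooled relaxed list, beside 61.5%. Without replicate 2 it was 6 (5.71%), beside 18.3%. No paired analysis was possible because the labels give a single group. With 1 *ins* gene bound, any single peak changes that family's count, and the depth behind each peak is unknown.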

Other observations

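Peptide genes with other names, a list of 8 that holds the insulin-like gene *daf-28* and the oxytocin-like gene *ntc-1*, had no bound gene in the optimal list (95% Wilson interval 0 to 32.4%), beside 19.2% of all genes, and 4 of them had a pooled relaxed summit (interval 21.5 to 78.5%), beside 61.5%. Both intervals cover the share of all genes. Their windows lay a median of 25374 bp from the nearest optimal summit, and their gene middles had a median of 1 optimal summit within 50 kb, against 4 for all protein-coding genes.

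Of 18 *flp* and *nlp* genes listed for their ties to locomotion, sleep and egg laying, 3 were bound (16.7%, interval 5.84 to 39.2%), beside 19.2% of all genes. They were *nlp-12* (signal 137), *nlp-9* (40.2) and *flp-14* (33.2). None of the 18 was bound with the window at the gene start, beside 12.4% of all genes. The sleep peptide gene of the RIS neuron, *flp-11*, had 2 pooled summits with a highest signal of 8.15. *flp-13*, the sleep peptide gene of the ALA neuron, had none in the pooled list and a single replicate 1 summit of rank 21681.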
